A study of Mus musculus with 9 samples.

Results

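The transcriptional response of E14 cells to 1.0 μM 5-iodotubercidin (5-ITu) was read from 3 arrays of cells given 1.0 μM 5-ITu and 3 arrays of cells given DMSO only, out of 9 arrays in the series, the other 3 being cells given 0.1 μM 5-ITu. E14 is a mouse embryonic stem (ES) cell line of blastocyst origin, and all 3 groups were unmodified E14 cells kept undifferentiated in serum and LIF, the cytokine that holds mouse ES cells in self-renewal, and exposed for 26 h. The rule for inclusion was the arrays' labels together with the signal: each probe set had to name a single gene and to exceed log2 signal 8.46, the background threshold of the study, on at least 3 of the 9 arrays. Of 10476 probe sets on hand, 9911 passed the signal rule, and 8414 of these named 1 gene each, giving 8198 genes, which are the genes described here. Where a gene had more than 1 probe set, the brightest was used. Just inside the signal rule lay Lpin3 at 8.4637 and Khnyn at 8.4642, and just outside it Aff3 at 8.4632 and Epm2aip1 at 8.4625. In the methods, arrays of one group count as biological replicates, but the labels name no separate cultures, so the p-values measure only the spread between these arrays. E14 is a single cell line, which limits how far its response stands for ES cells in general.

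5-ITu is a halogenated analogue of the nucleoside adenosine. It was long used to block adenosine kinase, and it also blocks several protein kinases, among them Haspin, which phosphorylates histone H3 in mitosis and so helps to place the chromosomal passenger complex at centromeres, and kinases of the CLK and DYRK families, which act on splicing factors and other substrates. Mouse ES cells in serum and LIF express a core set of pluripotency factors and fluctuate between a naive state, marked by factors such as Klf4, Tbx3 and Prdm14, and a state closer to the epiblast after implantation, marked by genes such as Dnmt3b, Zic2 and Fgf15. FGF, Nodal, BMP and Wnt signals shift cells between these states.

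Of 5 pluripotency markers used to check the labelled cell type, Nanog, Sox2 and Zfp42 had strong signals. Nanog had log2 signals of 12.98, 12.94 and 12.98 on the 1.0 μM arrays, against 12.97, 12.85 and 13.05 on the DMSO arrays. Sox2 averaged 12.58 ± 0.024 at 1.0 μM and 12.46 ± 0.088 in DMSO, and Zfp42 averaged 12.04 ± 0.090 at 1.0 μM and 11.90 ± 0.022 in DMSO (SD, n = 3 arrays each). Pou5f1 and Esrrb were closer to the threshold, at 9.62 and 8.51 at 1.0 μM and at 9.59 and 8.61 in DMSO. None of these 5 genes passed the test. Since the arrays measure bulk RNA, a lower signal from fewer cells of a type and one from less RNA per cell cannot be told apart, here and below.

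Genes were tested with limma on the log2 values of all 9 arrays, and a gene was called where the Benjamini-Hochberg adjusted p was under 0.05. At 1.0 μM, 1091 of 8198 genes (13.3%) were higher than in DMSO and 1129 (13.8%) were lower, so that 2220 (27.1%) were called in either direction. Most changes were small. The median size of a called change was 0.285 on the log2 scale among higher genes and 0.303 among lower genes, and 117 higher and 195 lower genes changed by more than 0.5 log2 units. A change past 1.5-fold with an unadjusted p under 0.05 was found for 65 genes in the higher direction (0.793%) and for 117 in the lower direction (1.43%), and only 4 higher and 6 lower genes passed 2-fold. The 0.1 μM arrays lent the fit their spread, which was the smallest of the 3 groups: the median SD of a gene was 0.084 over the DMSO arrays, 0.041 over the 0.1 μM arrays and 0.074 over the 1.0 μM arrays. With the 6 compared arrays alone, limma called 687 probe sets higher and 742 lower, against 1129 and 1180 with all 9.

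**Figure D1:**
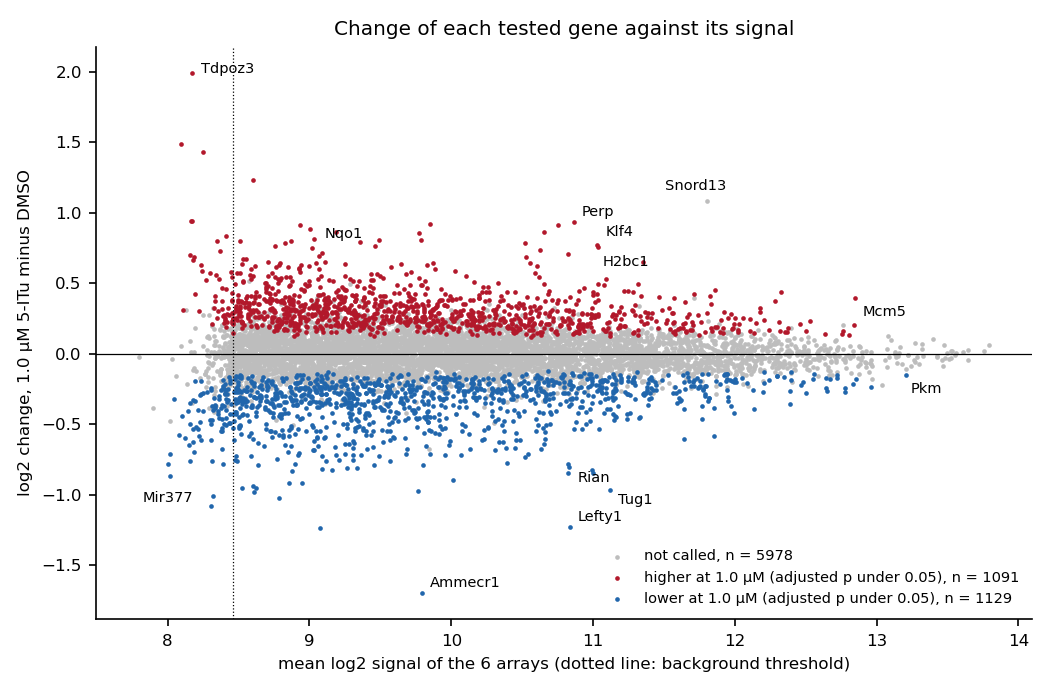
Each point is 1 of the 8198 tested genes, with the mean log2 signal over the 6 compared arrays on the horizontal axis and the log2 change at 1.0 μM 5-ITu minus DMSO on the vertical axis. The called genes lie close above and below the uncalled ones over the whole range of signal, and changes beyond 1 log2 unit are few.

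Calls were found at all levels of signal and were somewhat more frequent among weak genes. With the genes cut into 5 bins of rising signal, 15.8% were higher and 15.6% lower in the weakest bin, and in the strongest bin 9.1% were higher and 12.4% lower. The signal rule bears on the weakest genes: in 124 of the higher genes the DMSO mean lay under the threshold, and in 151 of the lower genes the 1.0 μM mean did. Of 30 tested genes over the threshold on 1.0 μM arrays only, 26 were called higher, a direction that the rule favours. Of 226 over it on no 1.0 μM array, 135 were called lower and 3 higher. The largest change without a call was that of Snord13, a small nucleolar RNA, which read 12.19, 12.07 and 12.77 on the 1.0 μM arrays and 10.10, 13.04 and 10.63 on the DMSO arrays (log2 change 1.09, limma adjusted p = 0.207). DMSO array 2 was the highest of the 6 for this RNA, so the groups overlapped.

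To look beyond the strongest genes, called genes were ranked by the size of their change when they kept their call in each of 14 refits (each array left out in turn, the 6 compared arrays alone, the replicate number as a block, and 3 other settings), did not overlap between groups and had both means over the threshold. This left 493 higher and 502 lower genes. Among the genes ranked 1 to 10 in the higher direction were Cd68, a lysosomal membrane protein, with a log2 change of 0.91, Tppp3, a tubulin polymerisation-promoting protein that the study itself named from these arrays, with 0.85, Npnt (nephronectin, an integrin ligand of the extracellular matrix) and Elf3, an epithelial ETS factor, with 0.81 each, and Actn2, a muscle-type actinin, with 0.80. Elf3 read 10.09, 10.35 and 10.12 on the 1.0 μM arrays and 9.24, 9.57 and 9.33 on the DMSO arrays.

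The genes ranked 11 to 30 in the higher direction changed by 0.79 to 0.61 log2 units. Glp1r, the receptor of the incretin hormone GLP-1, led them with 9.65, 9.85 and 9.76 at 1.0 μM and 8.99, 8.85 and 9.04 in DMSO (change 0.79 ± 0.07 SE, limma adjusted p = 0.00012). Klf4, the naive pluripotency and reprogramming factor, which the study also named, read 11.54, 11.39 and 11.31 at 1.0 μM and 10.70, 10.63 and 10.60 in DMSO (change 0.77 ± 0.06 SE, limma adjusted p = 0.00011). In both genes the lowest 1.0 μM array lay more than 0.5 above the highest DMSO array. Nqo1, a quinone reductase of the antioxidant response, read 9.99, 10.01 and 9.54 at 1.0 μM and 9.19, 9.07 and 8.98 in DMSO, with 1.0 μM array 3 the closest to the DMSO arrays. H2bc1, which encodes a testis-type H2B histone, read 11.22, 11.45 and 11.57 at 1.0 μM and 10.85, 10.73 and 10.40 in DMSO.

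Several of these genes act at the cell surface. Ror2, a receptor tyrosine kinase for non-canonical Wnt ligands, and Nrp2, a coreceptor of semaphorins and VEGF, each rose by 0.64, as did Cd109, a GPI-anchored protein that binds TGF-β. Ror2 read 10.04, 10.05 and 9.80 at 1.0 μM and 9.43, 9.42 and 9.12 in DMSO. Others belong to the cytoskeleton and centrosome: Coro2a, an actin-binding coronin, rose by 0.75, Ttll6, a tubulin polyglutamylase of cilia, by 0.71, and Ccp110, which caps centrioles, by 0.64. Membrane transport was represented by Slc25a20, the mitochondrial carnitine-acylcarnitine carrier (0.64), Slc4a11 (0.62) and the P4-type ATPase Atp9a (0.61). The remaining members were Zfp36l3, an RNA-binding protein of the tristetraprolin family (0.69), the LIM protein Crip2 (0.65), the copine Cpne2 (0.64), the autophagy receptor Calcoco2 (0.63), H2bc14 (0.63), Fbxo36 (0.63) and Eif4a3l1 (0.61). H2bc14 belongs to a family of near-identical histone genes, and Eif4a3l1 resembles Eif4a3, so their probe sets may share signal with related genes.

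The strongest lower genes included a group of transporters. Slc1a4, a carrier of neutral amino acids, read 8.43, 8.46 and 8.56 at 1.0 μM and 9.02, 9.61 and 9.59 in DMSO (change -0.92 ± 0.14 SE, limma adjusted p = 0.0014), and Slc7a3, a carrier of cationic amino acids, read 10.88, 10.49 and 10.36 at 1.0 μM and 11.55, 11.31 and 11.35 in DMSO. Slc25a11, the mitochondrial oxoglutarate carrier, fell by 0.84. Csnk1g3, a casein kinase, fell by 0.89, Marveld1 by 0.82 and Klhl9, an adaptor of a cullin ubiquitin ligase that targets Aurora B in human cells, by 0.81.

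Genes ranked 11 to 30 in the lower direction changed by 0.81 to 0.71 log2 units. Map7d3, a microtubule-associated protein, read 9.97, 10.01 and 10.04 at 1.0 μM and 10.71, 10.78 and 10.84 in DMSO (change -0.77 ± 0.05 SE, limma adjusted p = 3.6e-05). Fgf15, a secreted FGF of the early embryo, read 9.02, 8.81 and 8.96 at 1.0 μM and 9.47, 9.96 and 9.60 in DMSO, and Foxh1, the DNA-binding partner of Smads in Nodal signalling, read 9.68, 9.56 and 9.57 at 1.0 μM and 10.45, 10.15 and 10.34 in DMSO. In each of the 3 genes all 1.0 μM arrays lay below all DMSO arrays, which the ranking required.

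Regulators of gene expression made up a further part of this group. Tasor, a subunit of the HUSH complex that silences retroelements, read 10.63, 10.46 and 10.19 at 1.0 μM and 11.25, 11.17 and 11.22 in DMSO (change -0.78 ± 0.09 SE, limma adjusted p = 0.00041). Taf5, a subunit of TFIID, fell by 0.76, the single-stranded nucleic acid binding protein Purb and the zinc finger factor Zic2 by 0.73 each, and Ptbp2, a splicing repressor best known from neurons, by 0.71. Uptake and metabolism were represented by Slc27a2, a very long-chain fatty acyl-CoA synthetase (-0.81), Slc23a1, a vitamin C transporter (-0.78), and Car4, a membrane-bound carbonic anhydrase, which read 8.64, 8.91 and 9.23 at 1.0 μM and 9.67, 9.65 and 9.89 in DMSO. The remaining genes were Bcar3, Btbd6, Hgh1, Rasgrp4, Pros1 (the anticoagulant protein S), Atxn7l3b, Maneal and Sec16a, a scaffold of endoplasmic reticulum exit sites, with changes of -0.76 to -0.71, and the long noncoding RNA Rian.

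**Figure D2:**
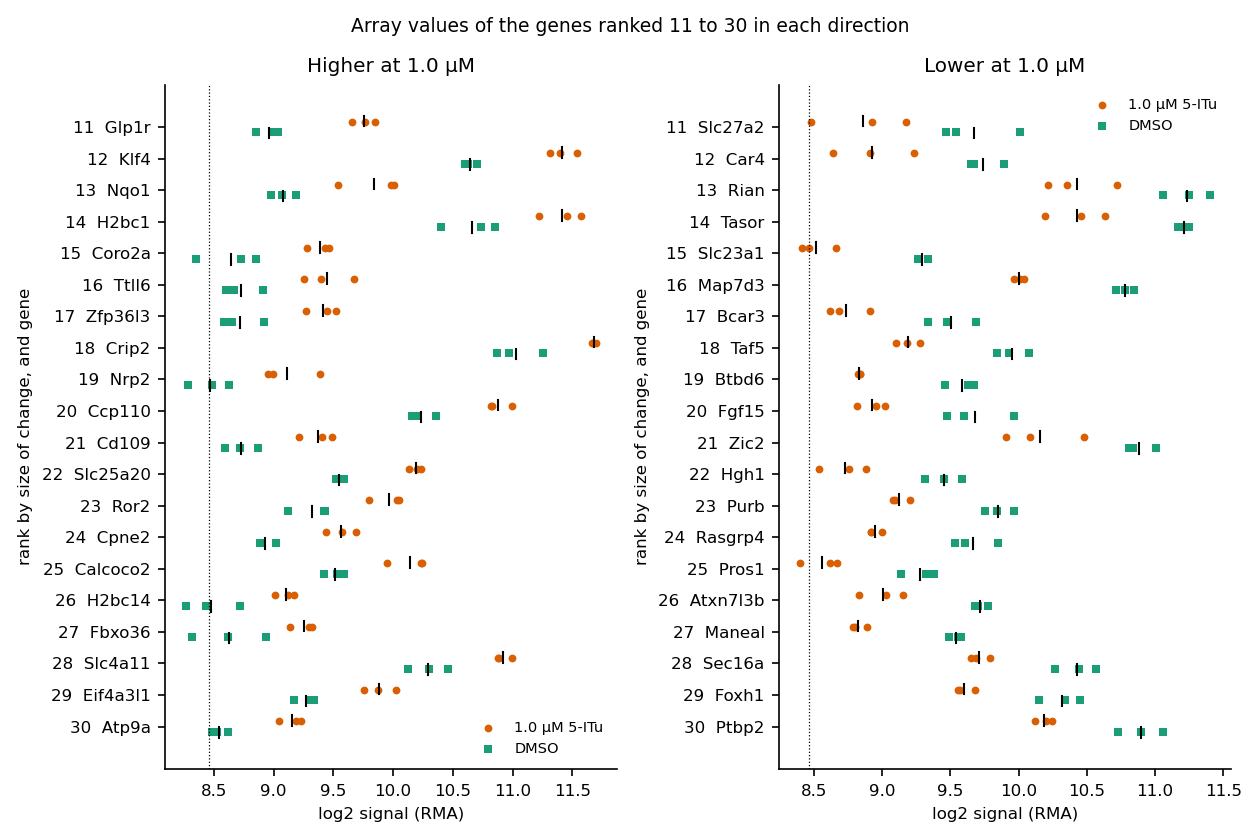
Log2 signals of the genes ranked 11 to 30 in each direction on the 3 arrays of 1.0 μM 5-ITu (circles) and the 3 of DMSO (squares), with short strokes at the group means and a dotted line at the threshold of 8.46. In all 40 genes the groups are apart, which the ranking required, and the mean difference runs from 0.79 to 0.61 in the higher genes and from -0.81 to -0.71 in the lower ones.

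Rian belongs to the imprinted interval between Dlk1 and Dio3 on chromosome 12, whose maternal chromosome gives a long series of noncoding transcripts with snoRNAs and microRNAs (miRNAs) inside them. Of 9 tested genes of this interval, 7 were lower at 1.0 μM and 0 were higher, against 13.8% and 13.3% of all genes. Rian read 10.22, 10.36 and 10.72 at 1.0 μM and 11.41, 11.06 and 11.25 in DMSO (change -0.81 ± 0.12 SE, limma adjusted p = 0.00159). Mir377 read 7.79, 7.70 and 7.96 at 1.0 μM, all under the threshold, and 9.07, 8.54 and 8.86 in DMSO, which makes it at least 1.28-fold lower (limma adjusted p = 0.00042). The fold is a bound, taken against the threshold. Mir329 fell by 0.71, Mir341 by 0.51 and 2 small RNA genes listed as AF357355 and DQ267102 by 0.79 each. Mir453 fell by 0.63, but its arrays overlapped (9.79, 9.88 and 10.39 at 1.0 μM, 10.78, 10.36 and 10.80 in DMSO) and the call was lost in 3 of the 14 refits. The uncalled members were Mir673 with a log2 change of 0.03 and AF357425 with -0.22. Mir329 and AF357355 were also lower than DMSO at 0.1 μM, with changes of -0.76 and -0.68 (limma adjusted p = 0.0182 and 0.00908). For both, the difference between 1.0 and 0.1 μM did not pass the test (limma adjusted p = 0.816 and 0.493). Rian, Mir341 and Mir453 changed by -0.46, -0.29 and -0.46 at 0.1 μM, without passing. DQ267102, Mir673 and AF357425 were added after their values were seen, and the genes of an interval made into shared transcripts are not independent of each other.

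The mature miRNAs of the 4 called miRNA genes are shown so that their seeds can be compared. Their sequences were taken from RefSeq, build GRCm38.p6, and lie on the plus strand between chr12:109611521-109611541 (miR-341-5p) and chr12:109740553-109740574 (miR-377-3p). Capitals mark the seed, bases 2 to 8, the stretch that pairs with target mRNAs.
miR-341-5p: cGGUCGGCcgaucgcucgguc
miR-341-3p: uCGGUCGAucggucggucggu
miR-329-5p: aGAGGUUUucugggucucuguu
miR-329-3p: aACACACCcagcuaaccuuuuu
miR-453: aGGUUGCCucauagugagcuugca
miR-377-5p: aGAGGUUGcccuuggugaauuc
miR-377-3p: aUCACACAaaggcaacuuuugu
The 7 mature sequences have 7 distinct seeds, so no seed is shared within the set. The probe sets cannot tell a mature miRNA from its precursor or its host transcript.

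A second noncoding cluster moved the other way. Inside Sfmbt2, a Polycomb-related gene on chromosome 2, lies a rodent array of miR-466 and miR-669 copies. Of 7 tested miRNA genes there, 5 were higher at 1.0 μM and 0 lower. Mir669a-3 read 8.93, 8.97 and 8.84 at 1.0 μM and 8.49, 8.35 and 8.57 in DMSO (change 0.44 ± 0.08 SE, limma adjusted p = 0.00489), and Mir669g read 9.30, 9.30 and 9.24 at 1.0 μM and 8.82, 8.77 and 9.02 in DMSO (0.41 ± 0.07 SE, limma adjusted p = 0.00237). Mir669k, Mir466b-2 and Mir669j, with changes of 0.34, 0.35 and 0.31, lost their calls in 3, 7 and 8 of the 14 refits. Mir466h (0.37), Mir669i (0.26) and Sfmbt2 itself (0.11) did not pass the test. These genes were chosen after their values were seen. The copies are nearly identical, so the signal of one cannot be assigned to it with certainty. In all, 7 of 44 miRNA genes were higher and 8 lower.

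Neighbouring genes were compared in the order of the RefSeq gene table. The next tested gene was called the same way for 166 of 1088 higher genes (15.3%) and for 164 of 1121 lower genes (14.6%), close to the 13.3% and 13.8% of all genes. The longest run of called neighbours lay on chromosome 7 and was picked after its values were seen: Kirrel2, Nphs1, Nphs1os, Proser3, Hspb6, Lin37 and Psenen were all lower. Nphs1 encodes nephrin and Kirrel2 a nephrin-like adhesion protein, Lin37 is a subunit of the MuvB cell cycle repressor complex, and Psenen is a subunit of γ-secretase. Psenen, the brightest of them, read 12.27, 12.32 and 12.32 at 1.0 μM and 12.53, 12.43 and 12.50 in DMSO, and Nphs1 read 8.70, 8.41 and 8.81 at 1.0 μM and 9.01, 8.99 and 9.19 in DMSO. Kirrel2 was under the threshold on every 1.0 μM array and at least 1.14-fold lower, Lin37 lost its call in 5 of the 14 refits and Nphs1 and Psenen in 1 each, and Nphs1 and its antisense partner Nphs1os overlap in sequence, so their signals cannot be separated with certainty. A run of 4 higher genes on chromosome 12, Gm8300, Gm1995, Gm2016 and Gm2022 (the last 3 with changes of 0.51, 0.36 and 0.78, Gm8300 over the threshold on 1 of 3 DMSO arrays), is a family of related predicted genes that may share probes. Another run of 4, on chromosome 19, was lower and ended in Taf5, with Nt5c2, Ina and Pcgf6 beside it, of which Nt5c2 and Ina lost their calls in 10 and 4 refits.

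**Figure D3:**
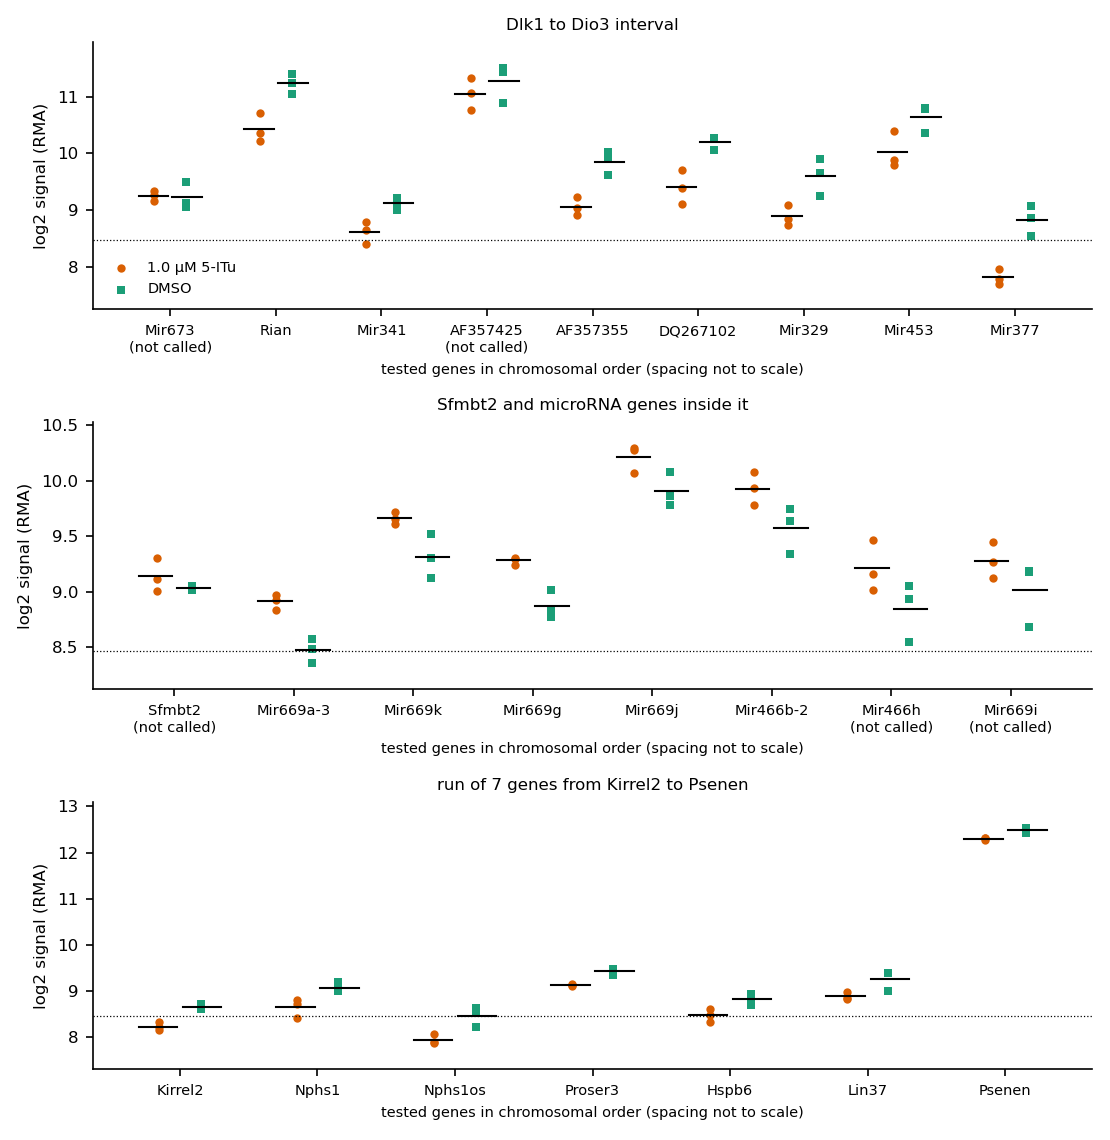
Log2 signals on the 3 arrays of 1.0 μM 5-ITu (circles) and the 3 of DMSO (squares) for tested genes in their chromosomal order, not to scale, in the Dlk1 to Dio3 interval, in and around Sfmbt2, and in the run from Kirrel2 to Psenen, with strokes at group means and a dotted line at the threshold of 8.46. The called genes lie lower at 1.0 μM in the top and bottom panels and higher in the middle one, and Mir377, Kirrel2 and Nphs1os are below the threshold on every 1.0 μM array.

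The response was then read by gene class. The 71 classes hold 3204 of the 8198 genes, 386 of them higher and 435 lower, and 208 genes sit in 2 or more classes. Each class is described by its counts and its median change beside the shares of all genes, 13.3% higher and 13.8% lower with a median change of 0, and no class was tested as a set. Of all called genes, 607 higher and 655 lower ones kept their call in each of the 14 refits. Among classes of at least 18 measured members, the largest shares higher were those of immediate early genes (9 of 24), p53 target genes (15 of 40), germline and piRNA genes (8 of 25) and DNA replication genes (19 of 64). The largest shares lower were those of formative and epiblast genes (10 of 20), histone genes with a probe set of their own (6 of 18), DNA methylation and demethylation genes (6 of 21) and zinc finger genes of the Zfp family (44 of 164). Of the smaller classes, 2-cell-like genes, some of which the study named from these arrays, had 6 of 14 higher and 0 lower, and homeobox genes had 1 of 14 higher and 6 lower. Among the 6 higher 2-cell-like genes were Tdpoz3 and Tdpoz2, which were over the threshold on 1.0 μM arrays only, so the signal rule itself favoured their higher call. Members named below are a selection from the called ones with the largest changes, together with the following, which were added after their values were seen: Adk, Atf4, Ccnd1, Ccnd3, Cdk4, Cdkn1a, Cdt1, Fancd2, H1f10, Id1, Jun, Mcm6, Mcm7, Pold4, Pole2, Sox12, Tbx3, Tcf15, Tet1, Topbp1, Uhrf1 and Zfp975.

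**Figure D4:**
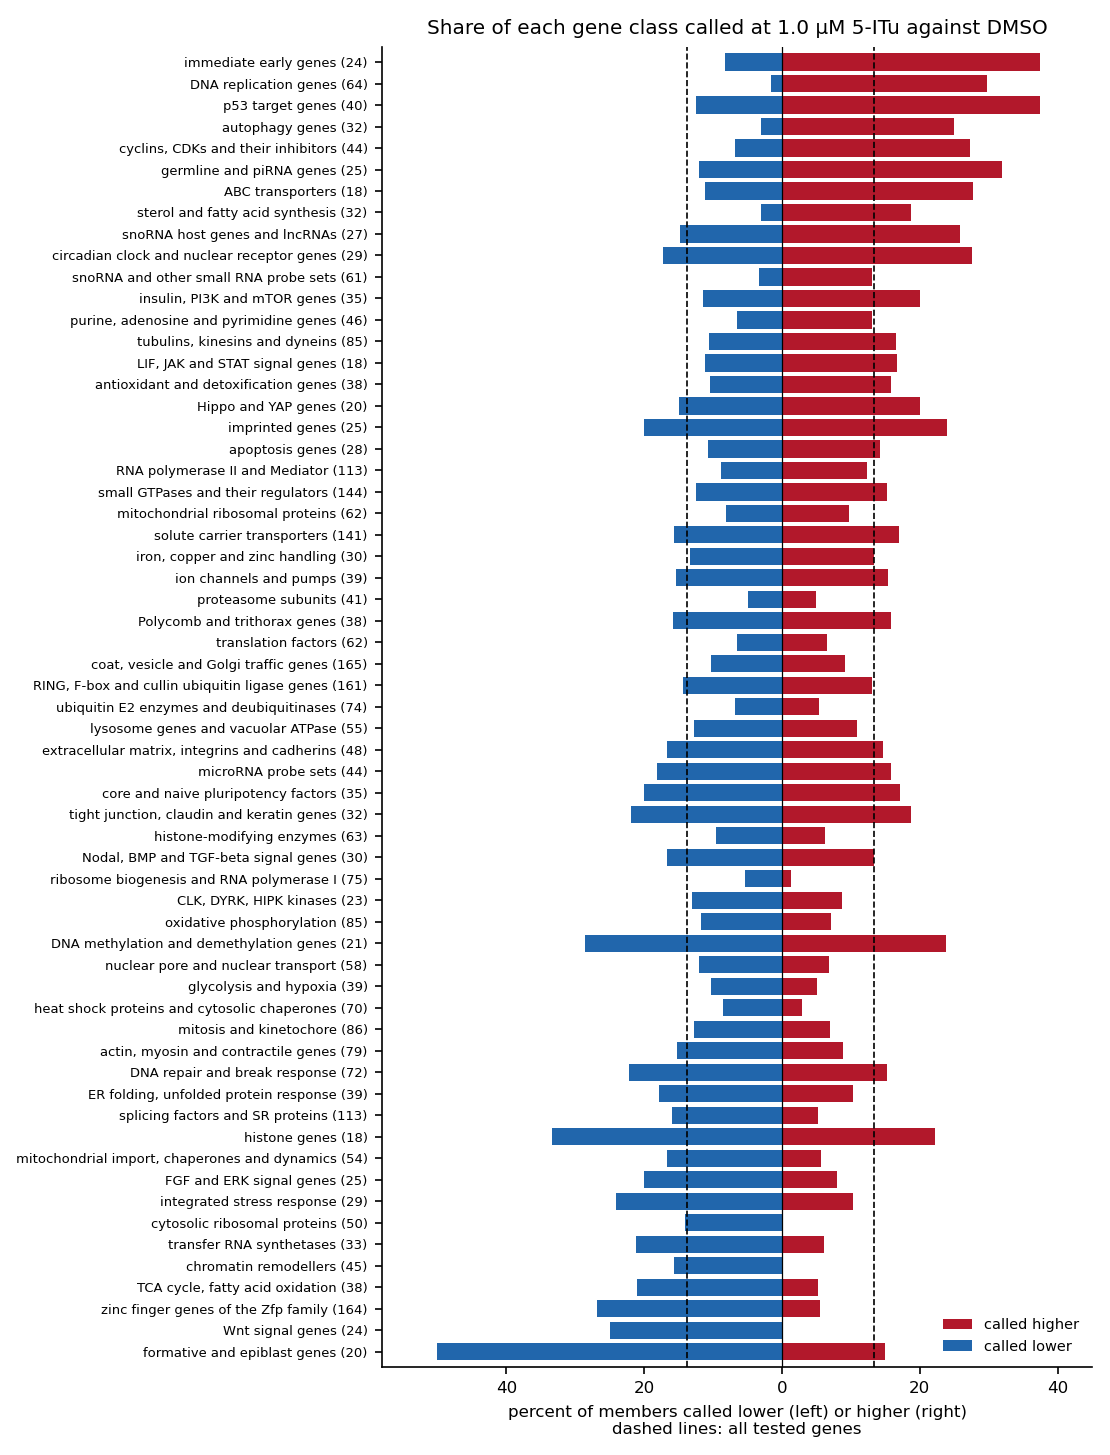
Percent of the measured members of each class that were called lower (bars to the left) or higher (bars to the right) at 1.0 μM 5-ITu against DMSO, for classes with at least 18 members (number in brackets), with dashed lines at the 13.8% and 13.3% of all tested genes. Classes are ordered by the difference between both shares, from immediate early genes at the top to formative and epiblast genes at the bottom.

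Among signalling genes, the immediate early class had 9 members higher and 2 lower of 24, with a median change of 0.154, and 5 of these calls held in every refit. These genes are switched on within minutes by growth factors and stress. Besides Klf4, the class held Atf3, a stress-induced transcription factor that was under the threshold on every DMSO array and at least 1.11-fold higher at 1.0 μM (limma adjusted p = 0.00096), and Btg1, an antiproliferative gene, which rose by 0.42. Jun, the AP-1 subunit, read 9.61, 9.53 and 9.77 at 1.0 μM and 9.29, 9.22 and 9.46 in DMSO, with a call lost in 7 refits. Egr1, the ERK-responsive zinc finger factor, went the other way, with 8.98, 9.06 and 9.30 at 1.0 μM and 9.73, 9.38 and 9.85 in DMSO, and lost its call in 4 refits. The class therefore did not move as one.

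In the class of Nodal, BMP and TGF-β signal genes, 4 of 30 were higher and 5 lower, and 21 did not pass the test. The BMP ligands Bmp7 and Bmp4 rose by 0.60 and 0.57, and so did Id1, the usual BMP target, by 0.35. Bmp4 read 11.18, 10.82 and 10.63 at 1.0 μM and 10.53, 10.19 and 10.19 in DMSO. The lower ones included Lefty1, a secreted inhibitor of Nodal (-1.23), Foxh1 (-0.71) and the Nodal-related ligand Gdf3 (-0.64, lost in 2 refits). Gdf3 read 10.63, 10.44 and 9.93 at 1.0 μM and 11.26, 10.77 and 10.88 in DMSO.

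Wnt signal genes had 0 members higher and 6 lower of 24. The lower ones included the R-spondin receptor Lgr4 (-0.53), the Frizzled receptors Fzd5 and Fzd7 (-0.41 each) and the repressor Tcf7l1 (-0.27), so receptors and a repressor of the pathway fell together. FGF and ERK genes had 2 higher and 5 lower of 25, with the ETS factor Etv4 higher, over the threshold on 1 of 3 DMSO arrays, and its relative Etv1 at -0.49. In the Notch class, the receptor Notch3 fell by 0.66 and the target gene Hes1 rose by 0.55. Notch3 read 9.14, 9.09 and 9.12 at 1.0 μM and 9.71, 9.88 and 9.75 in DMSO, and Hes1 read 9.31, 9.35 and 9.41 at 1.0 μM and 8.60, 8.98 and 8.84 in DMSO. Both pairs of groups were clear of each other, as were those of 3169 of the 8198 tested genes. In the insulin and PI3K class, the adaptor Irs2 fell by 0.64 and the regulatory subunit Pik3r3 rose by 0.60.

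Pluripotency genes split. Of 35 core and naive factors, 6 were higher and 7 lower, beside 13.3% and 13.8% of all genes. The class median was -0.059, so the class as a whole did not rise. The higher ones included the naive factors Tbx3, with 11.42, 11.28 and 11.27 at 1.0 μM and 10.76, 10.88 and 10.87 in DMSO, and Prdm14, with 9.26, 9.27 and 9.03 at 1.0 μM and 8.77, 8.68 and 8.75 in DMSO. Gbx2, a target of LIF signalling, averaged 0.65 higher, but its call was lost in 8 refits, its arrays being spread over 9.93, 9.37 and 9.01 at 1.0 μM and 9.12, 8.66 and 8.58 in DMSO. On the lower side was Lin28a, the RNA-binding protein that blocks let-7 maturation, with 10.39, 10.40 and 10.28 at 1.0 μM and 10.87, 11.18 and 10.83 in DMSO (change -0.60 ± 0.09 SE, limma adjusted p = 0.00161). Rex2 fell by 0.50.

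Formative and epiblast genes leaned down more than any other class of 18 or more members, with 10 of 20 lower, 3 higher and a median change of -0.223, and 8 of these calls held in every refit. Zic2 (-0.73) and its neighbour in the genome and in function Zic5 fell together, Zic5 with 9.77, 9.63 and 9.65 at 1.0 μM and 10.42, 10.23 and 10.25 in DMSO. Pim2, a serine kinase, and the SoxC factor Sox12 fell by 0.60 and 0.58. Against this direction, Cdh2 (N-cadherin) and Tcf15, a bHLH factor of cells primed to differentiate, were higher by 0.47 and 0.31, the call of Cdh2 being lost in 1 refit.

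Of 64 DNA replication genes, 19 were higher and 1 lower, with a median change of 0.100, and 10 of these calls held in every refit. The changes were small and were found at several steps of replication. Rpa2, a subunit of the single-strand binding protein RPA, rose by 0.44, and Gins3, of the replicative helicase, by 0.35. The licensing factor Cdt1 read 12.09, 12.09 and 12.05 at 1.0 μM and 11.75, 11.95 and 11.77 in DMSO (change 0.25 ± 0.06 SE, limma adjusted p = 0.0112). Mcm5, of the MCM helicase ring, read 13.03, 12.97 and 12.83 at 1.0 μM and 12.76, 12.77 and 12.68 in DMSO, and the sliding clamp Pcna rose by 0.14. The calls of Mcm5 and Pcna were lost in 4 and 3 refits. The 1 lower gene, the polymerase delta subunit Pold4, had both means under the threshold.

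The promoters of the class were searched, on both strands, for the words TTTCGCGC and TTTGGCGC, which are known as sites bound by E2F factors. The window was 250 bases before to 50 after each gene's start in RefSeq (GRCm38.p6), with 1 promoter a gene. A word was found in 12 of the 54 replication genes with a promoter (22.2%), against 125 of the 6571 tested genes with one (1.9%), and in 6 of 17 that were called higher (35.3%). The class was defined by function and not by this word, and the match is a description of letters, not of binding. The 30 bases around the word are given on each gene's strand for the 6 called genes, with the word in capitals. The calls of Mcm6, Mcm7, Pole2 and Topbp1 were lost in 7, 5, 6 and 3 refits. The word appears in Pole2 and Topbp1 as the reverse complement, and in Mcm5 and Mcm6 as 2 overlapping words on opposite strands.
Cdt1: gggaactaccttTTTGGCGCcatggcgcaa
Mcm5: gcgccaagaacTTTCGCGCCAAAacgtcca
Mcm6: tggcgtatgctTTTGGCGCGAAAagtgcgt
Mcm7: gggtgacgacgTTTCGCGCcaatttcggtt
Pole2: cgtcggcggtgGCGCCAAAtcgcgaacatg
Topbp1: ccgctcggttgGCGCGAAAgtcggttcccg
These stretches lie at chr8:122568035-122568064 (Cdt1, plus strand), chr8:75109345-75109374 (Mcm5, plus), chr1:128359797-128359826 (Mcm6, minus), chr5:138171849-138171878 (Mcm7, minus), chr12:69228162-69228191 (Pole2, minus) and chr9:103305187-103305216 (Topbp1, plus). Counted from the gene's start, the word begins at base 33 in Cdt1, 17 in Mcm7, 11 in Pole2, -153 in Mcm5, -110 in Mcm6 and -129 in Topbp1. Other words were searched in the same window, in this and other classes, and are not reported in full. One of them, TGATGNAA, was found in 4 of 24 transfer RNA synthetases with a promoter (16.7%), against 2.0% of tested genes. Among those called lower it was found in 1 of 3.

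Cyclins, CDKs and their inhibitors had 12 of 44 higher and 3 lower, 7 of these calls holding in every refit. The D-type cyclins, which partner CDK4 and CDK6 in G1, diverged: Ccnd2 was higher, with 2 of 3 DMSO arrays over the threshold, Ccnd1 was 0.31 higher with a call lost in 8 refits, and Ccnd3 fell by 0.24. Cdk4 read 12.58, 12.48 and 12.49 at 1.0 μM and 12.78 on each DMSO array (change -0.26 ± 0.04 SE, limma adjusted p = 0.00237). The p53 target class had 15 of 40 higher and 5 lower with a median change of 0.120, and 10 of these calls held in every refit. The class median at 0.1 μM was 0.127, no smaller than at 1.0 μM. Mdm2, the ubiquitin ligase that p53 induces and that degrades p53, read 11.43, 11.34 and 11.32 at 1.0 μM and 11.18, 10.88 and 11.02 in DMSO. Perp, a desmosomal effector of p53, rose by 0.93 and Ephx1, an epoxide hydrolase, by 0.49. Cd80, a costimulatory ligand, read 9.09, 9.02 and 8.62 at 1.0 μM and 8.53, 7.87 and 7.92 in DMSO, where 1 of 3 arrays was over the threshold. The p53-induced CDK inhibitor Cdkn1a, with 11.59, 11.70 and 11.63 at 1.0 μM and 11.56, 11.22 and 11.43 in DMSO, lost its call in 9 refits, DMSO array 1 lying just below the nearest 1.0 μM array.

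DNA repair genes moved both ways, with 11 of 72 higher and 16 lower. Rad54l, a recombination motor, read 10.27, 10.42 and 10.27 at 1.0 μM and 9.76, 9.71 and 9.73 in DMSO (change 0.58 ± 0.05 SE, limma adjusted p = 0.00013), and Fancd2 of the Fanconi pathway rose by 0.38. Prkdc, the kinase of end joining, read 9.15, 9.23 and 9.11 at 1.0 μM and 9.61, 9.55 and 9.69 in DMSO, and Mlh3 and Fancf fell by 0.45 and 0.42. Of the mitosis, kinetochore and chromosomal passenger genes, a class that includes the complex Haspin helps to place, 6 of 86 were higher and 11 lower. The kinetochore subunit Spc24 read 8.73, 8.84 and 8.60 at 1.0 μM and 9.54, 9.16 and 9.32 in DMSO, and the proliferation marker Mki67 read 10.93, 11.11 and 11.03 at 1.0 μM and 11.29, 11.53 and 11.53 in DMSO. In the other direction, the condensin II subunit Ncapg2 rose by 0.39. The shares of this class, 7.0% higher and 12.8% lower, were below those of all genes.

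Of 164 zinc finger genes named Zfp, 44 (26.8%) were lower and 9 higher, against 13.8% and 13.3% of all genes, and the class median was -0.118. The median signal was 9.28 for the Zfp genes and 9.82 for all genes, and its part in the count was not tested. Zfp799 read 8.69, 8.61 and 8.21 at 1.0 μM and 9.08, 9.30 and 9.07 in DMSO (change -0.65 ± 0.11 SE, limma adjusted p = 0.00318), and Zfp729a and Zfp975 fell by 0.61 and 0.59. Zfp493 was under the threshold on every 1.0 μM array and at least 1.78-fold lower. Of the 53 called Zfp genes, 36 kept their call in every refit. Many of these genes, which mostly encode DNA-binding repressors with KRAB domains, arose by duplication and may share probe sequence.

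Of 18 histone genes measured by a probe set that names them alone, 4 were higher and 6 lower. Probe sets shared by several near-identical histone genes are not in this count. The study itself named histone genes as upregulated on these arrays, among them Hist4h4, Hist2h3b and Hist1h1e. The count here therefore does not stand for histone genes as a whole. The 4 higher ones were the linker histone H1f3, the testis-type H2bc1, H2bc14 and H2ac1. H2bc1 rose by 0.75 and H2bc14 by 0.63. H2ac1, which is the neighbour of H2bc1 and encodes a testis-type H2A, read 12.97, 13.10 and 13.06 at 1.0 μM and 12.92, 12.51 and 12.51 in DMSO with a call lost in 3 refits. H1f3 read 9.54, 9.13 and 8.98 at 1.0 μM and 8.56, 8.34 and 8.39 in DMSO, where 1 of 3 arrays was over the threshold. H2bc18, by contrast, read 9.36, 9.65 and 9.56 at 1.0 μM and 10.17, 9.82 and 10.28 in DMSO, and H1f10 fell by 0.43. In the DNA methylation class, with 5 of 21 higher and 6 lower, Uhrf1, which brings the maintenance methyltransferase to replicated DNA, rose by 0.30 and the 5-methylcytosine dioxygenase Tet1 by 0.19, while the de novo methyltransferase Dnmt3b fell by 0.61 and the methyl-CpG-binding family member Mbd6 by 0.50. Tet1 read 11.92, 11.97 and 11.97 at 1.0 μM and 11.77, 11.78 and 11.74 in DMSO, a small but even difference. Chromatin remodellers had 0 higher and 7 lower of 45, and the 15.6% lower were close to the 13.8% of all genes. In either direction, 15.6% of the class was called, against 27.1% of all genes, and 3 calls held in every refit. Pbrm1 and Smarcd1 of the SWI/SNF family (-0.31 each) were among the lower ones.

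Classes of protein synthesis differed. Mitochondrial ribosomal proteins had 6 of 62 higher and 5 lower, and translation factors 4 of 62 higher and 4 lower. Of 33 transfer RNA synthetases, 7 were lower and 2 higher, with Lars at -0.32 and Iars at -0.31 for leucine and isoleucine. In the integrated stress response and amino acid synthesis class, 7 of 29 were lower and 3 higher. Psat1, an enzyme of serine synthesis, read 10.27, 10.23 and 10.22 at 1.0 μM and 10.49, 10.65 and 10.78 in DMSO (change -0.40 ± 0.07 SE, limma adjusted p = 0.00245), and the amino acid carriers Slc1a4 and Slc7a3 were lower with it. Atf4, the transcription factor of this response, was 0.30 lower with a call lost in 7 refits. Cytosolic ribosomal proteins had 7 of 50 lower, a share close to the 13.8% of all genes, and 0 higher. Rps12 read 11.77, 11.80 and 11.80 at 1.0 μM and 12.21, 12.15 and 12.25 in DMSO. Ribosome biogenesis was among the quietest classes, with 1 of 75 higher and 4 lower. Of 113 splicing factors, substrates of the CLK kinases among them, 18 were lower (15.9%) and 6 higher (5.3%). The class was called in 21.2% of its members, below the 27.1% of all genes. Son, a large protein of nuclear speckles, fell by 0.45 and Tra2a, an SR-like splicing regulator, by 0.42, and the kinase gene Clk4 rose by 0.30. Adk, the gene of adenosine kinase, did not pass the test (change -0.06 ± 0.06 SE). Adk was looked at because adenosine kinase is a known target of 5-ITu.

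Metabolic classes were mixed. In the tricarboxylic acid cycle and fatty acid oxidation class, 8 of 38 were lower and 2 higher, with the anaplerotic enzyme Pcx at -0.55 and the carnitine palmitoyltransferase Cpt2 at -0.42. The sterol and fatty acid synthesis class ran the other way, with 6 of 32 higher and 1 lower. Scd1, the stearoyl-CoA desaturase, read 10.22, 10.47 and 10.57 at 1.0 μM and 9.60, 10.05 and 10.07 in DMSO, and Sqle (squalene epoxidase) read 10.51, 10.51 and 10.36 at 1.0 μM and 9.99, 10.18 and 9.90 in DMSO. The call of Scd1 was lost in 1 refit. Of 38 antioxidant and detoxification genes, 6 were higher and 4 lower, and the 26.3% called were close to the 27.1% of all genes. Single members went both ways. Cbr3, a carbonyl reductase, was under the threshold on every DMSO array and at least 1.03-fold higher, and Nqo1 was higher as well. Srxn1 (sulfiredoxin), another known target of the antioxidant factor Nrf2, read 9.10, 9.13 and 8.97 at 1.0 μM and 9.81, 9.71 and 9.73 in DMSO. Ephx2, the soluble epoxide hydrolase, read 8.43, 8.43 and 8.51 at 1.0 μM, with 1 of 3 arrays over the threshold, and 9.33, 9.91 and 9.83 in DMSO. Of 85 oxidative phosphorylation genes, 6 were higher (7.1%) and 10 lower (11.8%), both shares below the 13.3% and 13.8% of all genes. The assembly factors Ndufaf3 and Sdhaf1 fell by 0.68 and 0.62, and another, Ndufaf1, rose by 0.46.

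Of 141 solute carriers, 24 were higher and 22 lower (32.6% called, against 27.1% of all genes). The iron exporter Slc40a1 was under the threshold on every DMSO array and at least 1.38-fold higher. Autophagy genes had 8 of 32 higher and 1 lower, of which 2 kept their call in every refit, with Atg101 and Atg14, subunits of the ULK1 and class III PI3K complexes that start autophagosomes, up by 0.38 each. Atg14 read 10.16, 10.21 and 10.13 at 1.0 μM and 9.83, 9.76 and 9.78 in DMSO. Germline and piRNA genes had 8 of 25 higher and 3 lower, among them Rnf151, a testis RING-finger gene under the threshold on every DMSO array and at least 1.30-fold higher, and the germ cell helicase Ddx4, with 9.95, 10.06 and 10.01 at 1.0 μM and 9.33, 9.52 and 9.42 in DMSO. Rnf151 was over the threshold on 1.0 μM arrays only, so the signal rule favoured its higher call. Of 25 imprinted genes, 6 were higher and 5 lower. The zinc finger gene Peg3 read 10.36, 10.42 and 10.37 at 1.0 μM and 10.94, 10.89 and 10.89 in DMSO, and the growth factor Igf2 was under the threshold on every DMSO array and at least 1.30-fold higher. Of 61 snoRNA and other small RNA probe sets, 8 were higher (13.1%) and 2 lower (3.3%), against 13.3% and 13.8% of all genes. The share called higher was thus that of all genes. The largest called change was that of Snord110, with 9.49, 9.20 and 9.65 at 1.0 μM and 8.75, 8.30 and 8.62 in DMSO.

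Other large classes stayed near or below the background. Proteasome subunits were called in 9.8% of 41 members, heat shock proteins and cytosolic chaperones in 11.4% of 70, ubiquitin E2 enzymes and deubiquitinases in 12.2% of 74 and translation factors in 12.9% of 62, each below the 27.1% of all genes. RING, F-box and cullin ubiquitin ligase genes (27.3% of 161) and small GTPases and their regulators (27.8% of 144) were close to it.

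**Figure D5:**
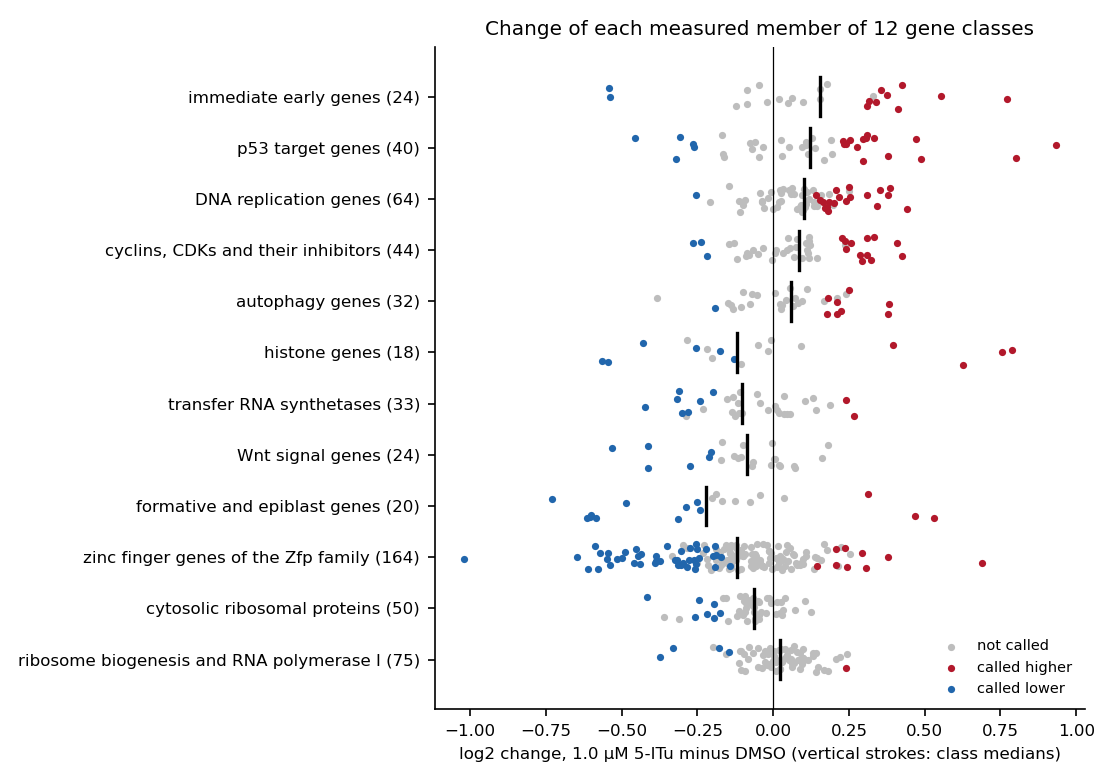
Log2 change at 1.0 μM 5-ITu minus DMSO of each measured member of 12 classes, 1 point a gene (called higher, called lower or not called), with a vertical stroke at the class median. The medians of DNA replication genes (0.100) and p53 target genes (0.120) lie above 0 and those of formative and epiblast genes (-0.223) and Zfp genes (-0.118) below it, and every class holds members that were not called.

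The brightest called genes changed little. Among the 5 higher genes with the strongest DMSO signal were Fth1, the ferritin heavy chain, and Serinc3, with changes of 0.13 and 0.16, whose calls were lost in 8 and 3 refits. Among the 5 lower ones were Pkm, the pyruvate kinase of glycolysis, at -0.15 (lost in 2 refits), the histone variant H2ax at -0.18 (lost in 1), Atxn10 at -0.21 and the uridine-cytidine kinase Uck2 at -0.27.

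The response at 1.0 μM was set beside that at 0.1 μM, a comparison that shares the DMSO arrays. The values are therefore given side by side, for single genes and for the medians of some classes. Class medians at 0.1 μM and 1.0 μM were 0.127 and 0.120 for p53 targets and 0.117 and 0.154 for immediate early genes. They were 0.214 and 0.098 for germline and piRNA genes, and 0.108 and 0.080 for sterol and fatty acid synthesis. For DNA replication genes they were 0.006 and 0.100, and for formative and epiblast genes -0.047 and -0.223. Glp1r was 0.68 above DMSO at 0.1 μM and 0.79 at 1.0 μM, and Ttll6 was 0.73 above it at 0.1 μM and 0.71 at 1.0 μM (1.0 minus 0.1 μM: 0.11 and -0.01, limma adjusted p = 0.231 and 0.951). Klf4 was 0.15 above DMSO at 0.1 μM and 0.77 at 1.0 μM, and differed between the doses (limma adjusted p = 0.00022). Car4 changed sign between doses, with 0.57 at 0.1 μM, which passed the test, and -0.81 at 1.0 μM. Mir377 was under the threshold on every array of both doses, so its doses were not compared.

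Markers of other cell types were looked at as a check on the cultures. Of 23 macrophage and blood markers, 3 were measured and all 3 were higher (Cd68, Laptm5 and Cd34, the last from DMSO values all under the threshold), their summed linear signal being 3603 to 3666 on the 1.0 μM arrays and 2104 to 2358 on the DMSO arrays. Cd68 also belongs to lysosomes in general, and the other listed markers were not analysed here. Of 25 fibroblast and smooth muscle markers, 8 were measured, 0 were higher and 3 lower, with sums of 12505 to 13342 at 1.0 μM and 13586 to 13944 in DMSO, and Tagln was lower, over the threshold on 1 of 3 arrays at 1.0 μM. Of 6 measured neural markers none was called. Trophectoderm markers had 2 of 9 higher, with sums of 10932 to 12776 at 1.0 μM and 10416 to 11087 in DMSO, endoderm markers 1 higher and 1 lower of 8, and mesoderm markers 1 higher of 3, which was Bmp4. No marker can read 0 on these arrays, and the part of such cells in the other results was not tested.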

How the data were processed

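E14 cells under DMSO, 0.1 μM or 1.0 μM 5-ITu (3 Affymetrix Mouse Gene 2.0 ST arrays each) were analysed from the log2 values deposited by the authors, which the labels' processing notes credit to RMA in Affymetrix Expression Console. RMA corrects background, normalizes between arrays and summarizes probes, which evens out shifts common to all genes and compresses small signals. The study removed probe sets under a signal of 353, and each probe set on hand exceeded it on at least 1 array. Depth does not apply to arrays, and their number limits the precision.

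Genes were named from the platform's annotation, which gives 668 of 10476 probe sets several symbols and 954 none. These were tested but not described. All 9911 probe sets over the threshold on at least 3 arrays entered 1 linear model over the 9 arrays (lmFit, contrasts.fit and eBayes of limma 3.58.1, run under R 4.3.3), with Benjamini-Hochberg adjustment over all of them. Arrays were mapped by their titles. The script was tested on simulated data. Named genes were ranks 1 to 30 in each direction among the calls kept in 14 refits, up to 4 called members with the largest change in each class, and the 5 brightest called genes in each direction. Members, classes and rules were chosen with earlier results of these data known, and the definitions of the histone, ribosomal protein, small GTPase and solute carrier classes were corrected after their values were seen. A fold is given as "at least" where every array of the dimmer group lay under the threshold, which then took its place. Python 3.11.15, pandas 2.3.3 and matplotlib 3.10.9 were used. Alternatives were array weights, trend and robust eBayes, quantile normalization, other filters, 1 probe set per gene, a one-way F test, the 6 compared arrays alone, the replicate block and leaving out each array. Promoter and miRNA sequences came from RefSeq tables of GRCm38.p6. The platform's annotation names no genome build, so coordinates are given only for the promoter stretches and mature miRNAs, from those RefSeq tables.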

Additional observations from a re-analysis of the deposited data

How the results depend on the processing

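The main counts, over probe sets of 1 symbol, were 1129 higher and 1180 lower at 1.0 μM than in DMSO, with 67 and 137 past 1.5-fold. With the 6 compared arrays alone they were 687 higher and 742 lower, and 61.6% of the called genes kept their call. With the threshold required on all 9 arrays, 35 higher and 89 lower passed 1.5-fold. A fold change over 2 left 4 higher and 8 lower. Leaving out 1 array at a time gave 792 to 1121 higher and 849 to 1191 lower, with 67 to 82 and 124 to 156 past 1.5-fold, and the calls kept were fewest without 1.0 μM replicate 2 (69.1%) and without DMSO replicate 3 (70.6%). The replicate block gave 1260 higher and 1304 lower, with 67 and 138 past 1.5-fold. The deviations of same-numbered 1.0 μM and DMSO arrays correlated at 0.51, 0.067 and 0.437, and those of differently numbered ones at -0.444 to 0.118. The values of replicates 1 and 3 lay above that range and that of replicate 2 within it. The main fit did not pair the arrays, and whether same-numbered arrays belong together was not tested beyond the replicate block. The other settings stayed within 1.5 times the main counts. Over the named genes, 4446 values under the other settings kept their side of the test, 229 no longer passed, 4 newly passed and none changed direction. The medians of 3 marker lists moved, those of trophectoderm, fibroblast and macrophage markers, under 1 setting each. Changes of weak genes are limited by the background threshold, and 3 arrays a group limit the precision.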

Other observations

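Probe sets that the annotation assigns to several symbols or to none were tested with the rest but belong to no gene class. Of 627 with several symbols, 83 were higher and 116 lower at 1.0 μM than in DMSO, and of 870 with no symbol, 114 were higher and 122 lower (limma, adjusted p under 0.05). Of the 139 genes with more than 1 tested probe set, 107 had all their probe sets on the same side of the test and none had probe sets called in opposite directions. Of the 2220 called genes, 1399 belong to none of the 71 classes.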
